A study of Mus musculus with 2 samples.

Results

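The cells described here are the *Pcp4*-positive cells of the GFP+ library, 361 of the 8173 cells sequenced in the study. A cell was counted when it carried at least 1 unique molecular identifier (UMI, the tag that makes PCR copies of 1 transcript count once) of *Pcp4*, at most 2 UMIs of *Fabp7*, at most 1 UMI of *Chac1*, *Trib3* and *Slc7a3* together, and a mitochondrial fraction of UMIs under 0.25. The *Fabp7* limit and the limit on the other 3 genes keep out cells with high *Fabp7* and cells with stress genes. Under these other limits the GFP+ library held 3045 cells, so that the *Pcp4*-positive cells made up 11.9% of them (10.7% to 13.1%), and the remaining 2684 cells, with no *Pcp4* UMI, served for comparison. The values of *Pcp4*, *Fabp7* and the stress genes chose the cells and are given as a description.

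All cells came from mouse retinas at stage E14.5, of the strain Tg(Lhx4::EGFP)KN199Gsat/Mmucd, in which a transgene places EGFP under regulatory sequence of *Lhx4*, a LIM homeobox gene of early cones. The retinas of 2 litters were pooled into 1 suspension and sorted by flow cytometry into GFP+ and GFP− cells, and each gate gave 1 droplet library of 3′ transcript ends. Both gates therefore carried the transgene, animals could not be told apart, and GFP marks activity of the reporter and not cone fate itself. The GFP+ library held 16010591 UMIs in 3728 cells (median 3906.5 UMIs per cell) and the GFP− library 46778924 UMIs in 4445 cells (median 9936). With 1 library per gate there were no replicates, cells are not replicates of each other, and no test was made. Intervals are 95% intervals that cover counting error only.

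Cones are the photoreceptors of daylight and color vision. In the mouse they leave the cell cycle before birth, switch on *Otx2*, *Crx*, *Thrb* and *Rxrg* early, and assemble opsin, the rest of the phototransduction cascade and the outer segment later. *Pcp4* (Purkinje cell protein 4, also called PEP-19) encodes a small protein with an IQ motif that binds calmodulin and alters how fast calcium enters and leaves it. It is best known from Purkinje cells of the cerebellum.

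The *Pcp4* gene (ENSMUSG00000090223, protein coding) spans chr16:96467606-96525793 on the plus strand of GRCm38. The 250 bases before its start (RefSeq, GRCm38.p6, chr16:96467356-96467605, plus strand) are shown because *Pcp4* is the gene that defines the cells, with capitals for the core of the OTX2 and CRX binding motif, TAATC, which is here on the reverse strand and so reads GATTA.
*Pcp4* promoter: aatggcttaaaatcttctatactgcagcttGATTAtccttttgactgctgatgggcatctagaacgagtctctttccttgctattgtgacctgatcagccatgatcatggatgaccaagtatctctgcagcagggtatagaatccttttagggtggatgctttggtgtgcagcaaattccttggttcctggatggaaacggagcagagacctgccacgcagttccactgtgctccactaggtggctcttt
The match begins 220 bases before the start. Among 32851 RefSeq promoter windows of this length, 19.8% held TAATC on either strand and 6.25% held the longer TAATCC, which contains it. The *Pcp4* window did not hold TAATCC. The shorter core was searched after the window had been read, and a match of these letters is no evidence of binding.

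*Pcp4* was unevenly spread over the cells. The 361 cells held 1464 *Pcp4* UMIs, 965 per 1000000 UMIs (CPM, 917 to 1016), with a median of 2, a mean of 4.06 and a highest value of 41 UMIs per cell. There were 144 cells with 1 UMI, 68 with 2, 49 with 3 or 4, and 100 with 5 or more. The 100 cells of the top class were 27.7% of the *Pcp4*-positive cells and held 69.5% of their *Pcp4* UMIs, at 2309 CPM, while the 144 cells with 1 UMI held 9.84%. The 36 highest cells held 40.3%.

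**Figure D1:**
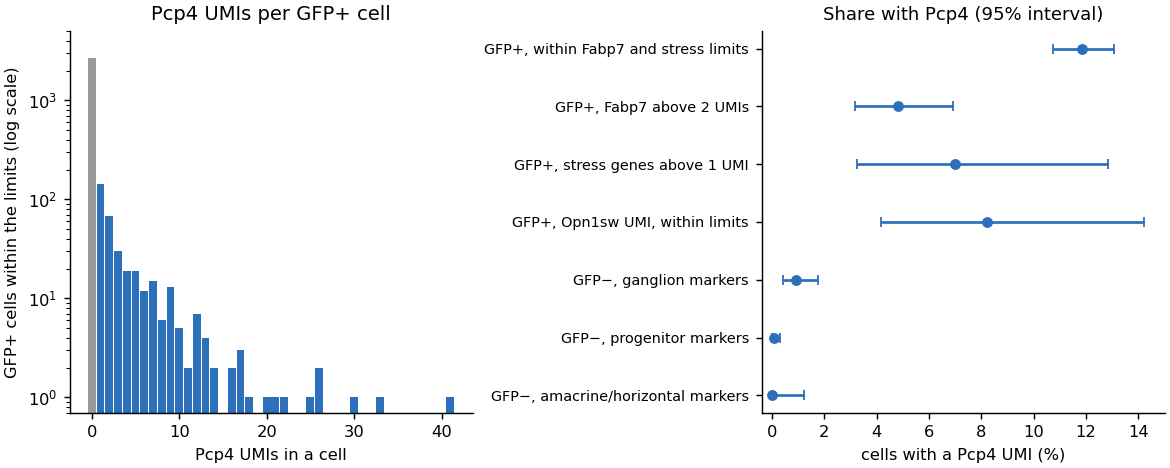
Left, number of GFP+ cells within the limits (log scale) by the number of *Pcp4* UMIs in the cell, with cells at 0 in gray. Right, share of cells with a *Pcp4* UMI (%) in groups of cells of both libraries, with exact 95% intervals, where the GFP+ cells within the limits stand at 11.9% and the 3 GFP− groups plotted at or below 0.925%.

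After every cell had been thinned to 3000 UMIs, the variance of *Pcp4* across the 2716 cells deep enough was 7.16 times its mean. The same quotient was 2.78 for *Gngt2* (the cone transducin γ subunit), 1.35 for *Thrb* (thyroid hormone receptor β2 in cones), 1.18 for *Lhx4* and 1.70 for *Opn1sw* (S-opsin). An uneven spread was not particular to *Pcp4*, since the quotient of *Crabp1*, a gene described below, was 12.1, with up to 83 UMIs in a cell. *Pcp4* was absent in most cells and abundant in a few, whereas *Lhx4* was near the value of 1 that counting alone gives.

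The share of *Pcp4*-positive cells was lower among shallow cells. In the shallowest of 5 equal classes of the 3045 cells (median 2967 UMIs) 8.52% were *Pcp4*-positive (6.43% to 11.03%), and in the deepest (median 5412 UMIs) 13.3% (10.7% to 16.3%). The *Pcp4*-positive cells had a median of 3886 UMIs and 1927 genes, and the *Pcp4* = 0 cells 3756 UMIs and 1884 genes. Mitochondrial transcripts took 2.45% and 2.46% at the median. At 3000 UMIs per cell, 10.9% of the cells had a *Pcp4* UMI. Just outside and inside the limit, the 2684 cells with 0 and the 144 cells with 1 *Pcp4* UMI had *Gngt2* at 1926 and 2071 CPM. Of the *Pcp4*-positive cells, 25 sat at the *Fabp7* limit of 2 UMIs with a mean of 3.24 *Pcp4* UMIs, and 9 cells with 3 *Fabp7* UMIs, just outside, had a mean of 4.44. At the stress limit of 1 UMI there were 14 cells with a mean of 6 *Pcp4* UMIs, and the 4 cells with 2 had a mean of 5.

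*Pcp4* was rare outside the GFP gate. It was found in 397 cells of the GFP+ library (10.6%, 102.6 CPM) and in 15 of 4444 cells of the deeper GFP− library (0.338%, 0.342 CPM). GFP− cells with progenitor markers, which should lack a gene of postmitotic neurons, had it in 2 of 2298 cells (0.0870%, median depth 9888 UMIs), and none of 301 GFP− cells with amacrine or horizontal markers had it, which allows a share of up to 0.997% (3 counts of the total). These shares come from another library and do not show the background within the GFP+ library, where the cells kept here had a median depth of 3776 UMIs. Among GFP− cells with a *Gngt2* UMI it was 3 of 72 (4.17%, 0.868% to 11.7%).

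Within the GFP+ library, cells lacking *Gngt2* and cells with division genes also had *Pcp4*. Of the 116 cells within the limits that had no *Gngt2* UMI, 6 had it (5.17%, 1.92% to 10.9%), and of the 111 with a *Top2a* or *Mki67* UMI, 9 (8.11%, 3.77% to 14.8%). How much of these shares was free RNA was not tested. The cells left out by the limits held less *Pcp4*. Of 563 cells with more than 2 *Fabp7* UMIs, 27 had a *Pcp4* UMI (4.80%, 3.18% to 6.90%, at 50.9 CPM), and this interval lies below that of the cells within the limits although the *Fabp7* cells were deeper (median 4907 UMIs). *Fabp7* encodes a brain fatty acid binding protein. Of 129 cells above the stress limit, 9 had *Pcp4* (6.98%, 3.24% to 12.8%), an interval that overlaps that of the cells within the limits. Per UMI these 129 cells held 48.1 CPM (31.9 to 69.5), against 117 CPM (111 to 123) within the limits. Cells with an *Opn1sw* UMI had *Pcp4* in 11 of 134 cells (8.21%, 4.17% to 14.2%) and cells without in 350 of 2911 (12.0%, 10.9% to 13.3%), intervals that overlap.

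The *Pcp4*-positive cells carried the transcripts of cones. Of 11 cone markers, *Pde6h* had no UMI in either group, and the cells had a median of 7 of the other 10. At least 5 were found in 357 of 361 *Pcp4*-positive cells (98.9%, 97.2% to 99.7%) and in 95.9% of the *Pcp4* = 0 cells (95.04% to 96.6%). *Gngt2* was found in 98.3% of the *Pcp4*-positive cells (96.4% to 99.4%) and 95.9% of the others (95.1% to 96.6%), against 0.522% of the GFP− progenitor-marker cells. *Otx2*, the homeobox gene that starts photoreceptor fate, was found in 99.4% and 97.7%. The progenitor-marker cells were chosen to lack it and give no background for it. Only 6 *Pcp4*-positive cells lacked *Gngt2*.

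The word "advanced" in their working name was not seen in the genes of the mature cone. Of 24 cone phototransduction genes, 16 had at least 10 UMIs, and their median log2 ratio of *Pcp4*-positive over *Pcp4* = 0 cells was -0.10, against 0.01 for all genes. Of these 16 genes, 4 lay above a ratio of 1 and 12 below. Of all 13097 genes with at least 10 UMIs, 6276 lay above and 6821 below. *Gnat2*, the cone transducin α subunit, stood at 150 and 172 CPM (ratio 0.87, 0.76 to 1.0). *Gnb3*, its β partner, stood at 601 and 639 CPM (ratio 0.94, 0.88 to 1.01). *Gngt2* stood at 2003 and 1926 CPM (ratio 1.04, 1.0 to 1.08). *Pdc*, which encodes phosducin, a binder of transducin βγ, stood at 727 and 798 CPM (ratio 0.91, 0.85 to 0.97). The channel subunit *Cngb3* had a ratio of 0.97 and its partner *Cnga3* 0.83 (0.59 to 1.15). *Opn1sw* had 15 and 165 UMIs, 9.89 and 15.01 CPM (ratio 0.66, 0.36 to 1.12). *Arr3*, cone arrestin, went the other way on few UMIs, with 5 and 14 (ratio 2.59, 0.73 to 7.61), and *Rd3*, an inhibitor of the photoreceptor guanylate cyclase, had 51.4 and 39.6 CPM (ratio 1.30, 1.01 to 1.66). *Opn1mw* and *Rcvrn* had no UMI in either group. The cells are therefore called here by *Pcp4* alone.

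Genes of the outer segment and cilium had ratios near 1, more of them below it than above. Of 29 listed genes, 27 were in the files and 26 had at least 10 UMIs, with a median log2 ratio of -0.03, 7 above a ratio of 1 and 19 below. *Cdhr1* (a cadherin at the base of the outer segment) had 308 and 317 CPM, *Tulp1* 216 and 218 CPM, *Rpgrip1* (a protein of the connecting cilium) 502 and 508 CPM, and *Unc119* 844 and 845 CPM. *Arl3*, a small GTPase of the cilium, had 75.8 and 93.1 CPM (ratio 0.81, 0.67 to 0.99). None of the 14 listed genes with at least 50 CPM passed 1.5-fold, but over all genes at this level only 0.165% were past it upward and 0.165% downward, so that a count of 0 in a list of this size, here or below, does not set the list apart.

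Among photoreceptor transcription factors the fate genes were close to equal and some others lower. *Otx2* had a ratio of 1.02 (0.98 to 1.07), *Crx* 1.02 (0.96 to 1.09), *Neurod1* 0.999 (0.95 to 1.05), *Lhx4* 1.02 (0.88 to 1.17) and *Prdm1*, the factor that holds back bipolar fate, 0.94 (0.85 to 1.03). *Thrb* stood at 682 and 614 CPM (ratio 1.11, 1.04 to 1.19) and its heterodimer partner *Rxrg* at 222 and 245 CPM (ratio 0.91, 0.81 to 1.02). *Rorb*, an orphan nuclear receptor needed for photoreceptor differentiation, stood at 490 and 648 CPM (ratio 0.76, 0.70 to 0.82), and it was already lower in the cells with 1 *Pcp4* UMI, at 482 CPM. *Casz1*, a zinc finger gene, stood at 105 and 133 CPM (ratio 0.79, 0.67 to 0.93) and *Isl2*, a LIM homeobox gene, at 47.5 and 69.0 CPM (ratio 0.69, 0.53 to 0.88). The median log2 ratio of the 16 factors with at least 10 UMIs was -0.12, and that of the 10 cone markers 0.03. None of the 15 listed factors with at least 50 CPM in either group passed 1.5-fold.

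Across all genes the 2 groups differed little. Of 3640 genes with at least 50 CPM in either group, leaving out the genes of the rule, 6 were at least 1.5-fold higher in *Pcp4*-positive cells (0.165%) and 6 at least 1.5-fold lower (0.165%). The higher genes included *Uncx*, *Nrn1*, *Slc17a6*, *Nckap5* and *Ssbp4*, and the lower were *Crabp1*, *Dhx32*, *Fgf15*, *Zmynd8*, *Ccnd1* and *Vma21*. These genes were picked from 3640 for their ratios, so their intervals understate the uncertainty. None was past 2-fold upward, and *Crabp1* was the only gene past 2-fold downward. The genes ranked 7 to 15 at the lower end had ratios between 0.67 and 0.72. They were *Isoc1*, *Hist1h2ap*, *Sfrp2*, *Gadd45a*, *Isl2*, *Psmg4*, *Ndrg1* (102 and 145 CPM, ratio 0.71, 0.59 to 0.83), *Zfp61* and *Rasa4*.

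**Figure D2:**
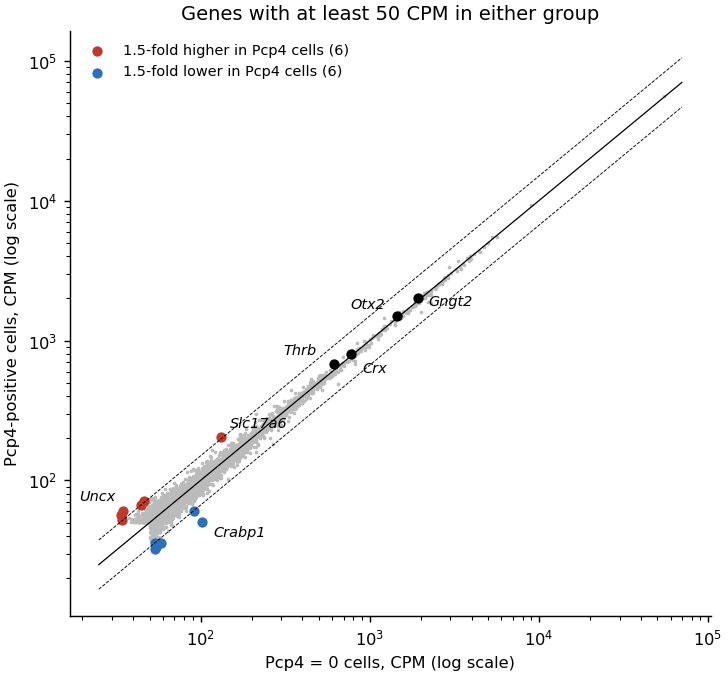
CPM in *Pcp4*-positive cells against CPM in *Pcp4* = 0 cells (both axes log scale) for the 3640 genes with at least 50 CPM in either group, with the line of equality and dashed lines at 1.5-fold. The 6 genes in red and the 6 in blue lie past the dashed lines, and the cone genes in black (*Otx2*, *Crx*, *Thrb*, *Gngt2*) lie along equality.

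*Slc17a6* was the most abundant of the higher genes. It encodes VGLUT2, a vesicular glutamate transporter that loads synaptic vesicles. It lies at chr7:51622006-51671119 and stood at 204 CPM (309 UMIs) in *Pcp4*-positive cells and 131 CPM (1444 UMIs) in the others, a ratio of 1.55 (1.37 to 1.76). A UMI was found in 46.5% of the *Pcp4*-positive cells (41.3% to 51.8%) and 32.6% of the others (30.8% to 34.4%), against 1.13% of the GFP− progenitor-marker cells. At 3000 UMIs per cell the shares were 35.6% (30.5% to 41.0%) and 28.5% (26.7% to 30.4%), intervals that only just lie apart. When the groups were also redrawn on the thinned counts, the ratio was 1.30, below 1.5-fold.

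*Uncx*, a paired-type homeobox gene, had the highest ratio of the 3640 genes with at least 50 CPM in either group. It stood at 60.0 CPM (91 UMIs) and 34.7 CPM (381 UMIs), a ratio of 1.73 (1.36 to 2.18), and was found in 16.6% and 11.2% of the cells. In GFP− progenitor-marker cells, with a median depth of 9888 UMIs, it was found in 0.174%. *Nrn1*, which encodes neuritin, a membrane-anchored protein of neurite growth, stood at 56.7 and 34.0 CPM (ratio 1.67, 1.30 to 2.11). *Nckap5* stood at 71.2 and 46.1 CPM (ratio 1.54, 1.24 to 1.90), and its ratio was 1.36 with the groups redrawn on thinned counts. *Ssbp4*, of a family that binds LIM domain cofactors, stood at 52.1 and 34.5 CPM (ratio 1.51, 1.17 to 1.93). Unlike *Uncx*, it was higher in the GFP− progenitor-marker cells, at 166 CPM and in 75.2% of them. In the cells with 3 or more *Pcp4* UMIs the ratio of *Ssbp4* was 1.09.

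The next 9 genes by ratio lay between 1.42 and 1.47. They were *Reep3*, *Ldb2* (a LIM domain cofactor, 75.2 and 51.1 CPM), *Nkap*, *Numa1*, *Prex2*, *Dusp26* (a phosphatase, 166 and 116 CPM, ratio 1.43, 1.24 to 1.64), *Yars* (tyrosyl-tRNA synthetase), *Birc2* and *Mthfd2* (a mitochondrial folate enzyme, 76.5 and 53.9 CPM). *Mthfd2* is also on the list of ATF4 targets described below, and its ratio was 1.12 with no stress gene limit. It was 0.99 in cells with 1 or 2 and 2.01 in cells with 3 or more *Pcp4* UMIs. *Nfib*, a nuclear factor I gene that is not among these 15, was named after its values were seen because of its abundance. It stood at 297 and 211 CPM (ratio 1.41, 1.27 to 1.56) and was found in 62.9% (57.7% to 67.9%) and 49.9% (47.9% to 51.8%) of the cells, and in 12.1% of the deeper GFP− progenitor-marker cells. At 3000 UMIs per cell the shares were 54.3% (48.8% to 59.7%) and 42.0% (40.0% to 44.0%).

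The levels of these genes over the classes of *Pcp4* UMIs are given with those of the *Pcp4* = 0 cells, against which they had been picked. *Slc17a6* stood at 131 CPM in cells with 0, 176 with 1, 208 with 2, 225 with 3 or 4 and 227 with 5 or more *Pcp4* UMIs. *Nfib* stood at 211, 250, 310, 281 and 356 CPM in the same classes. *Dusp26* stood at 116, 138, 153, 153 and 218 CPM. The highest class lay above the *Pcp4* = 0 cells in all 3 genes with intervals that did not overlap. Between neighboring classes the intervals overlapped, except for *Slc17a6* between 0 (125 to 138 CPM) and 1 *Pcp4* UMI (144 to 215 CPM). The 4 classes with *Pcp4* overlapped each other for *Slc17a6*. *Uncx* behaved differently, at 34.7, 52.9, 44.7, 35.8 and 90.7 CPM, so that its excess was mainly in the class with 5 or more. *Gngt2* showed no trend, at 1926, 2071, 1952, 2163 and 1882 CPM. The classes had median depths from 3711 to 4112.5 UMIs.

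**Figure D3:**
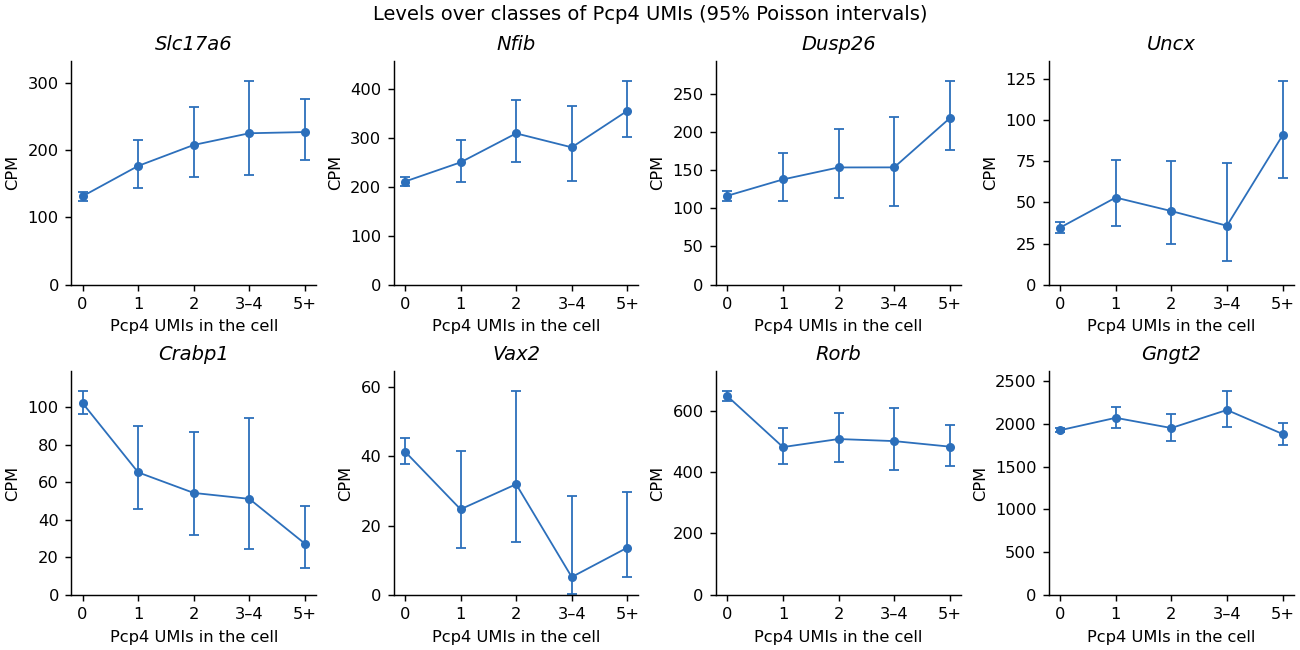
CPM of 8 genes in GFP+ cells with 0, 1, 2, 3 to 4, and 5 or more *Pcp4* UMIs (2684, 144, 68, 49 and 100 cells), with exact 95% Poisson intervals and each axis starting at 0. *Slc17a6*, *Nfib* and *Dusp26* are lowest at 0 and highest in the top class, *Crabp1* is highest at 0 and lowest in the top class, and *Gngt2* is nearly level.

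*Crabp1*, which encodes a cellular retinoic acid binding protein, had the lowest ratio of the 3640 genes. It lies at chr9:54764748-54773110 and stood at 50.1 CPM (76 UMIs) in *Pcp4*-positive cells and 102 CPM (1124 UMIs) in the others, a ratio of 0.49 (0.38 to 0.62). Over the classes of *Pcp4* UMIs it stood at 102, 65.3, 54.3, 51.1 and 27.2 CPM. Its UMIs sat in few cells, as 13.9% of the *Pcp4*-positive cells (10.5% to 17.8%) and 17.4% of the others (15.9% to 18.8%) had any. It was found in 65.8% of the GFP− progenitor-marker cells, a type that uses it, at 225 CPM. Over the whole GFP− library it stood higher, at 404 CPM, so progenitors were not the only GFP− cells with it. The ratio moved both ways with the cells used. With cells lacking *Gngt2* left out of both groups it was 0.68, short of 1.5-fold, without cells carrying markers of other cell types 0.40, and with 5 or more *Pcp4* UMIs as the threshold 0.27.

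The other retinoid and fatty acid binding genes did not move together. *Crabp2* had 13 and 240 UMIs (ratio 0.39, 0.21 to 0.68), below the level set for calls, in 1.39% and 3.02% of the cells, and was found in 91.4% of the GFP− progenitor-marker cells. Without cells carrying markers of other cell types its ratio was 0.73. *Rbp4*, a secreted retinol carrier used here as a cone marker, stood at 424 and 363 CPM (ratio 1.17, 1.07 to 1.27). *Rbp3*, the interphotoreceptor retinoid binding protein, stood at 168 and 165 CPM, and *Fabp5* at 286 and 332 CPM (ratio 0.86, 0.78 to 0.95). The median log2 ratio of the 10 listed genes with at least 10 UMIs was 0.08.

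*Vax2*, the homeobox gene of the ventral retina, was lower in the same direction as *Crabp1*. It stood at 20.4 CPM (31 UMIs) and 41.4 CPM (455 UMIs), a ratio of 0.49 (0.33 to 0.71), below the level for calls, and it was found in 6.93% of the *Pcp4*-positive cells and 13.2% of the others, and in 43.3% of the deeper GFP− progenitor-marker cells. It stood at 41.4, 24.7, 31.9, 5.11 and 13.6 CPM over the classes of *Pcp4* UMIs. Without cells that carried markers of other cell types the ratio was 0.46. *Tbx5*, a T-box gene of the dorsal retina, had 13 and 44 UMIs (ratio 2.14, 1.06 to 4.05), while *Tbx2* and *Tbx3*, also dorsal, had ratios of 1.1 (0.82 to 1.44) and 0.995 (0.525 to 1.75). Of the remaining ventral genes, *Ephb2* had a ratio of 0.77 (0.51 to 1.12) and *Nr2f1* 1.36 (1.03 to 1.77). The 9 dorsal genes had a median log2 ratio of 0.14 and the 7 ventral genes with at least 10 UMIs -0.36. The ventral median changed sign under some alternatives. *Nr2f1* and *Nr2f2* were also on the thyroid list. The position of a cell in the retina is not known from these data.

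*Ccnd1* (cyclin D1) and *Fgf15*, both used to choose the GFP− progenitor-marker cells, came from few cells. *Ccnd1* stood at 60.7 and 91.5 CPM (ratio 0.66, 0.53 to 0.82) but was found in 2.77% and 5.29% of the cells, and *Fgf15* stood at 35.6 and 58.4 CPM (ratio 0.61, 0.45 to 0.81) and was found in 1.39% and 2.61%. In cells with 2 *Pcp4* UMIs *Ccnd1* reached 233 CPM, above the 91.5 CPM of the *Pcp4* = 0 cells, while the 149 cells with 3 or more *Pcp4* UMIs held 3 *Ccnd1* and 0 *Fgf15* UMIs. The ratios moved both ways with the cells used. Without cells lacking *Gngt2* they were 1.02 for *Ccnd1* and 0.85 for *Fgf15*, without cells carrying markers of other cell types 0.49 and 0.30, and on thinned cells 0.52 and 0.37.

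Summed markers of progenitors, dividing cells and amacrine and horizontal cells were lower in the *Pcp4*-positive cells. A UMI of any of 8 markers, among them *Pou4f2*, *Rbpms*, *Tfap2b*, *Ptf1a*, *Sfrp2*, *Top2a* and *Mki67*, was found in 37 *Pcp4*-positive cells (10.2%, 7.32% to 13.8%) and 359 *Pcp4* = 0 cells (13.4%, 12.1% to 14.7%), intervals that overlap. Most of them had *Sfrp2*, found in 27 *Pcp4*-positive and 252 *Pcp4* = 0 cells. Leaving out cells with other markers, here and above, therefore mainly removed cells with an *Sfrp2* UMI. Whether these UMIs were free RNA was not tested. The ganglion cell genes *Pou4f2* and *Rbpms* were at 0 in the *Pcp4*-positive cells. Of the 18 listed ganglion cell markers, which together stood at 886 and 952 CPM with *Ebf1* the most abundant, 16 had at least 10 UMIs, with a median log2 ratio of -0.75. Of the 16, 2 lay above a ratio of 1 and 14 below. *Ebf1* was higher, at 371 and 311 CPM (ratio 1.19, 1.09 to 1.31). *Sncg* had 1 and 303 UMIs and *Gap43* 5 and 400, but in the *Pcp4* = 0 cells these sat in 18 and 90 cells. With the cells carrying any of the 8 markers left out of both groups, the median of this list was -0.06. The 15 progenitor markers, summing to 437 and 591 CPM with *Lhx2* the most abundant, a ratio of 0.74 (0.68 to 0.80), had a median of -0.50, which was 0.02 without those cells, although *Ccnd1* and *Fgf15* on the same list were then lower, as given above. The 19 cell division genes summed to 363 and 494 CPM (ratio 0.73, 0.67 to 0.80) with *Hist1h2ap* the most abundant and had a median of -0.63, which was 0.03 without those cells. *Hist1h2ap* itself had a ratio of 0.68 (0.60 to 0.77), and 1.03 without the cells carrying other markers. The 15 amacrine and horizontal markers summed to 1062 and 1257 CPM (ratio 0.85, 0.80 to 0.89) with a median of -0.15, which changed sign under some alternatives. They were led by *Meis2*, which the cones also carried (682 and 823 CPM, ratio 0.83, 0.78 to 0.88). *Tfap2b* and *Ptf1a*, which define those cells, had 1 UMI each in the *Pcp4*-positive cells and 91 and 68 in the others. These UMIs sat in 1 of 361 *Pcp4*-positive cells for either gene (0.277%, 0.00701% to 1.53%) and in 13 (0.484%, 0.258% to 0.827%) and 16 (0.596%, 0.341% to 0.966%) of the 2684 others, shares whose intervals overlap. The lists of bipolar cell, pigment epithelium, lens, and blood, vessel and microglia markers summed to 25.1, 15.2, 3.96 and 31.7 CPM in the *Pcp4*-positive cells. Their medians were 0.34, 0.31, -1.47 and -0.34 over at most 5 genes each, and that of the pigment epithelium changed sign under some alternatives.

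Rod genes were low in both groups. *Nrl*, which sets rod fate, had 30 and 350 UMIs, 19.8 and 31.8 CPM (ratio 0.62, 0.41 to 0.90), and was found in 7.76% (5.22% to 11.01%) and 11.1% (9.97% to 12.4%) of the cells and in 0.0435% of GFP− progenitor-marker cells. *Sag*, rod arrestin, had 14 and 191 UMIs (ratio 0.53, 0.29 to 0.91). *Gngt1*, the rod transducin γ subunit, was equal at 46.8 and 46.9 CPM. The 4 rod genes with at least 10 UMIs had a median log2 ratio of -0.40, which changed sign under some alternatives. None of the 11 rod genes reached 50 CPM in either group.

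Genes of calmodulin signaling, in which the protein of *Pcp4* acts, were close to equal. Of 27 listed genes, 21 had at least 10 UMIs, with a median log2 ratio of 0.01, 11 above a ratio of 1 and 10 below. None of the 13 with at least 50 CPM passed 1.5-fold, against 0.165% of all genes in either direction. The calmodulin genes *Calm2* and *Calm3* had ratios of 1.02 (0.96 to 1.08) and 0.92 (0.82 to 1.03). *Marcks* and *Ppp3ca*, which encode a calmodulin-binding substrate of protein kinase C and a catalytic subunit of calcineurin, had ratios of 1.02 (0.96 to 1.09) and 1.06 (0.95 to 1.18).

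The synaptic genes had a median log2 ratio of -0.01 over the 23 with at least 10 UMIs. Of 26 genes, 11 had at least 50 CPM, and *Slc17a6* alone of the 11 passed 1.5-fold, against 0.165% of all genes in either direction. Its ratio was 1.30 with the groups redrawn on thinned counts, as given above. *Stx3*, the syntaxin of ribbon synapses, stood at 121 and 90.7 CPM (ratio 1.33, 1.13 to 1.56) and was highest in cells with 3 or 4 *Pcp4* UMIs (169 CPM) and with 5 or more (147 CPM). *Rims2*, of the active zone, had 41 and 197 UMIs (ratio 1.51, 1.05 to 2.12), below the level for calls, and *Cplx1*, a complexin, 47 and 252 UMIs (ratio 1.35, 0.97 to 1.85). *Snap25* stood at 448 and 488 CPM (ratio 0.92, 0.85 to 0.996), *Syp* (synaptophysin) at 280 and 305 CPM and *Cplx2* (another complexin) at 705 and 735 CPM. *Slc17a7*, the VGLUT1 gene of mature photoreceptors, had 2 and 13 UMIs.

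The remaining lists held small differences. Genes of newborn photoreceptor precursors had a median log2 ratio of -0.06 (22 genes). Of its proneural genes, *Neurod4* stood at 509 and 444 CPM (ratio 1.15, 1.06 to 1.24) and *Atoh7* at 31.0 and 49.1 CPM (ratio 0.63, 0.46 to 0.85). *Neurog2* was found in 0 of 361 *Pcp4*-positive cells, which allows a share of up to 0.831% (3 counts of the total), and in 1.49% of the *Pcp4* = 0 cells (154 UMIs). ATF4 target genes outside the rule had a median of 0.20 (20 genes), with *Ddit3* at 117 and 87.4 CPM (ratio 1.34, 1.14 to 1.58) and *Asns* at 65.3 and 48.7 CPM (ratio 1.34, 1.07 to 1.66). None of the 9 with at least 50 CPM passed 1.5-fold, and the summed list stood at 1337 and 1199 CPM. Immediate early and heat shock genes had a median of 0.06, glycolysis -0.01, oxidative phosphorylation 0.02, the neuronal cytoskeleton -0.03, thyroid hormone handling 0.01, ribosomal proteins -0.03 and mitochondrially encoded genes -0.05. None of these 7 lists held a gene past 1.5-fold.

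**Figure D4:**
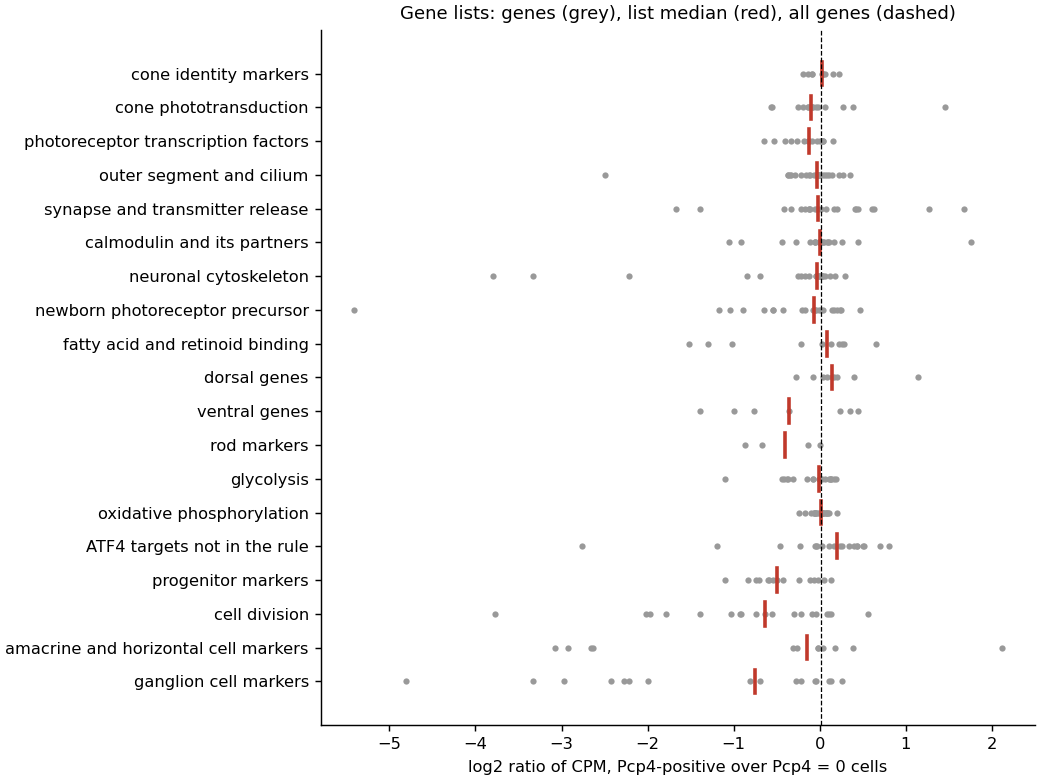
Log2 ratio of CPM in *Pcp4*-positive over *Pcp4* = 0 cells for the genes of 19 lists (gray points, genes with at least 10 UMIs over both groups), with list medians as red bars and the median of all genes, 0.01, as a dashed line. Cone lists sit near the dashed line, and the progenitor, cell division and ganglion cell lists lie to its left at -0.50, -0.63 and -0.75.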

How the data were processed

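Retinal cells of E14.5 embryos were sorted into 1 GFP+ and 1 GFP− library. The authors deposited counts, whole numbers of UMIs per gene and cell, made with Cell Ranger 2.1.1 (submitters' processing notes) on mm10/GRCm38 and not normalized. The matrices list 28692 genes, 58 symbols being on more than 1 gene.

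Cells were chosen by the limits given above. These limits, the comparison and the 25 gene lists were chosen with earlier results of these data known, so none is independent support. Group totals of UMIs were turned into CPM with exact Poisson intervals, ratios with exact conditional binomial intervals, and shares with exact Clopper-Pearson intervals, all at 95%, except that the limit given beside a share of 0 is 3 counts of the total. Past 1.5-fold means a ratio of at least 1.5 or its inverse among genes with at least 50 CPM in either group. List medians used genes with at least 10 UMIs over both groups and 0.5 added to both sums. The *Pcp4*-positive cells had the smaller total, so this shifted the log2 ratios of genes with few UMIs upward, and with them the medians of lists of such genes. The text names genes from the 15 at either end of the ranking by ratio at that CPM level, and list members. Some genes are not reported here. GFP− progenitor-marker cells, given beside shares for comparison, had at least 3 of 5 progenitor genes, among them *Sfrp2*, *Hes1*, *Fgf15* and *Ccnd1*. They also had no *Otx2*, *Pou4f2* or *Tfap2b*. Thinning drew 3000 UMIs per cell and left out shallower cells (24 *Pcp4*-positive and 305 *Pcp4* = 0 cells).

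Scrublet in scanpy 1.11.5 marked 3 of 3728 GFP+ cells (0.0805%) as doublets, too few for the caller to be relied on, and doublets were left in. The libraries shared 20 barcodes, 1 of them of a *Pcp4*-positive cell. The ratios and their intervals were run on counts simulated with Poisson error alone, where 94.9% of the intervals held the true ratio. That simulation had no spread between cells beyond counting, unlike these data, so it cannot show how the intervals perform here. Python 3.11.15, numpy 2.4.6, pandas 2.3.3, scipy 1.17.1, matplotlib 3.10.9, and R 4.3.3 with edgeR 4.0.16 for TMM factors were used. Alternatives covered the limits, depth, scaling, fold and CPM level.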

Additional observations from a re-analysis of the deposited data

Results flagged for a closer look

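*Pcp4* was also found outside the GFP gate, in data that the comparison did not use. Of 973 GFP− cells with ganglion cell markers, 9 had a *Pcp4* UMI (0.925%, 0.424% to 1.75%, 10 UMIs, median depth 13394 UMIs), above the 0.0870% (0.0105% to 0.314%) of the GFP− progenitor-marker cells, whose median depth was 9888 UMIs. Per UMI the levels were 0.752 CPM (0.360 to 1.38) and 0.0840 CPM (0.0102 to 0.303), intervals that do not overlap. After thinning to 3000 UMIs per cell, 0 of 972 and 0.0437% of 2289 cells had it, too few UMIs to compare them. The cause was not tested.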

How the results depend on the processing

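No paired analysis was possible because each sort gate gave 1 library, and for the same reason no replicate could be left out. The share of *Pcp4*-positive cells followed the threshold, at 7.13% with at least 2 UMIs, 4.89% with at least 3, 3.28% with at least 5 (this threshold was added after seeing the data), and 10.5% on thinned cells. The number of genes past 1.5-fold, 6 higher and 6 lower, changed with the *Pcp4* threshold, which alters the cells and their number together, with 20 higher and 13 lower at 2 or more *Pcp4* UMIs, 45 and 31 at 3 or more, and 92 and 80 at 5 or more. Genes higher numbered 10 without any *Fabp7*, 11 with no *Fabp7* limit, 10 with the stress genes at 0 and 3 by means of per-cell values. On thinned cells there were 14 higher and 16 lower, of which 3 and 2 were among the original 6 and 6. Genes lower numbered 3 in cells with *Gngt2* and 10 with the *Pcp4* = 0 cells weighted to equal depth. With a ratio of 5/4 or its inverse as the threshold there were 98 higher and 82 lower, with a fold of 2 there were 0 and 1, at 20 CPM 52 and 77, and with no CPM level 812 and 1488. The median of the cone phototransduction list lay between -0.15 and -0.01 under every alternative run for it. Of 917 other values, 833 stayed within their counting interval, 83 moved out of it, and 1 gene past 1.5-fold changed direction, *Ccnd1*, with a ratio of 1.02 in cells with *Gngt2*. Of the 15 genes at either end of the ranking, *Hist1h2ap* also crossed 1, at 1.03 without cells with other markers. There the progenitor and cell division medians crossed 0, at 0.02 and 0.03. Medians of other lists also changed sign under some alternatives, among them the ventral, rod, amacrine and horizontal, and pigment epithelium lists. The median log2 ratio of all genes stayed between -0.01 and 0.05.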

Other observations

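*Loxl2*, which encodes a lysyl oxidase of the extracellular matrix, was concentrated in the cells with most *Pcp4*. It stood at 19.2 CPM in cells with 0, 24.7 with 1, 15.97 with 2, 20.5 with 3 or 4 and 70.3 (47.8 to 99.8, 31 UMIs) with 5 or more *Pcp4* UMIs. It lies below the 50 CPM level in both whole groups and was chosen after its values were seen, as the pattern of 1 gene among many.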
